A study of Homo sapiens with 22 samples.

Results

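The transcripts followed here are those of HGF, MET and 3 genes that control the activation of HGF at the cell surface, ST14, SPINT1 and SPINT2. They were taken by symbol from the gene table of the files and are 5 of the 33694 genes listed there. The data are single-cell RNA-seq profiles of BJ cells, a line of human foreskin fibroblasts, during reprogramming towards induced pluripotency by mRNA transfections in microfluidic chips. The control cells were harvested at D0 without transfection, and transfected cells at D3, D5, D7, D9, D11, D13 and D15. Each day gave 2 pools, A and B, each of cells from several chips that were mixed, frozen and thawed, and some pools were sequenced as 2 aliquots. All cells come from 1 line, and per the study's methods the daily transfections were limited to 8 and the culture medium was switched at day 9. The comparisons of D7 with D9 and of early with late days therefore cannot be told apart from the end of transfection and the new medium. The D0 cells were a starting point and not a culture kept in parallel, and reprogramming medium was used from day 1. Comparisons with D0 therefore cannot be told apart from time in culture and this change of medium.

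Hepatocyte growth factor, encoded by HGF, is secreted mainly by mesenchymal cells as an inactive single chain that activates its receptor only after it is cut by a serine protease. Its receptor is the tyrosine kinase MET, which is typical of epithelial cells and signals through adaptors, the MAP kinase and PI3 kinase routes and STAT3. Matriptase (ST14) is a membrane-bound protease that can make this cut, and the Kunitz-type inhibitors HAI-1 (SPINT1) and HAI-2 (SPINT2) restrain matriptase and related activators in epithelia.

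In GENCODE v44 (GRCh38), HGF (ENSG00000019991) lies on chromosome 7 from 81699010 to 81770438 on the minus strand, and MET (ENSG00000105976) on the same chromosome from 116672196 to 116798377 on the plus strand. The other genes lie on the plus strand, ST14 (ENSG00000149418) on chromosome 11 from 130159782 to 130210362, SPINT1 (ENSG00000166145) on chromosome 15 from 40844018 to 40858207 and SPINT2 (ENSG00000167642) on chromosome 19 from 38244035 to 38292615. RefSeq promoters (GRCh38.p14) matched 3 of the 5 genes. Because HGF transcripts fell over the time course while those of SPINT1 rose, the sequence upstream of their RefSeq starts is shown beside that of MET, 5′ to 3′ on the strand of the gene and without any annotated exon. For HGF this stretch lies upstream of the RefSeq start used but inside the GENCODE gene, in an intron of transcripts that start farther upstream. The HGF stretch is chr7:81770137-81770290 (minus strand), the MET stretch chr7:116671946-116672195 (plus strand) and the SPINT1 stretch chr15:40843798-40844017 (plus strand, the first of 2 RefSeq starts). Capitals mark the GC box GGGCGG on either strand.
HGF: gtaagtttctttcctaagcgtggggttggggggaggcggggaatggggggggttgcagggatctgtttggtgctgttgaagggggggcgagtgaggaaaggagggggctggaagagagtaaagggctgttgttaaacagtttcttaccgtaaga
MET: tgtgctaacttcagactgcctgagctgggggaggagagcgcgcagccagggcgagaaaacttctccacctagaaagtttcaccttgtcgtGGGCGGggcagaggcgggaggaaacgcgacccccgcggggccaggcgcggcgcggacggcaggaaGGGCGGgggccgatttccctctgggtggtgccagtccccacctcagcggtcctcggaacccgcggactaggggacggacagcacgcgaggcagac
SPINT1: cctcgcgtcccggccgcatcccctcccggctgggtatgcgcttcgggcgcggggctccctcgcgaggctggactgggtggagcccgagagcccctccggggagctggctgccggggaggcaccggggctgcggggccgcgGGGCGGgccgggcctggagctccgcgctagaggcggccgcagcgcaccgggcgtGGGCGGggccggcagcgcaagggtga

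The GC box was matched 2 times in the 250 bases before the RefSeq start of MET and not at all in those of HGF. Before the first RefSeq start of SPINT1 it was matched 3 times, with 2 of the matches in the stretch shown. Of 35116 RefSeq promoters of the same length, 42.6% held it. The GC content of the 250 bases was 50% for HGF, 68.4% for MET and 80.4% for the first start of SPINT1. The median over all promoters was 58.0%. The E-box CANNTG (61.8% of promoters), the AP-1 motif TGANTCA (6.57%) and the octamer ATGCNAAT (2.69%) had no match on either strand in these 3 windows. The other RefSeq start of SPINT1 differed, since its 250 bases held no GC box but an E-box at base -26, with 70.4% GC. All these matches are letters in a window only, and no factor was measured at them.

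The files hold unique molecular identifiers (UMIs), that is, counted molecules. A filter that required 1000 genes per cell and capped mitochondrial UMIs at 10% kept 41975 of 44197 barcodes, with 33181614 to 180056814 UMIs per pool. Pairs of libraries shared between 0 and 41 barcodes, at most 1.63% of the smaller library. The smallest library, an aliquot of D9 pool A with 143 cells, stood apart for HGF at 0.476 CPM (UMIs of the gene per 1000000 UMIs of the library) against 5.86 CPM in the other aliquot, whereas MET was at 10.8 and 8.36 CPM in the same 2 aliquots. The 12 somatic markers (collagens, THY1, TAGLN and others) outnumbered the 12 developmental markers (EPCAM, CDH1, DPPA4, SALL4 and others) by 3 or more in every D0 cell thinned to 10000 UMIs, as the label of fibroblasts has it. A sum over a pool cannot tell fewer cells that express a gene from less RNA per cell.

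In the pool sums, HGF was high until D7 and low from D9. At D0 it stood at 19.3 CPM in pool A and 19.1 CPM in pool B, and at D3 at 15.9 and 21.0 CPM. The highest mean was reached at D5, with 32.5 and 19.2 CPM. It was then 9.43 and 16.5 CPM at D7, 5.28 and 3.98 CPM at D9 and 4.90 and 7.84 CPM at D11, and ended at 1.78 and 2.47 CPM at D13 and 2.29 and 0.864 CPM at D15. Every pool of D0 to D7 lay above every pool of D9 to D15. In the order of the day means, D5, D0, D3 and D7 overlapped with their neighbours, D7 and D11 were apart, D11 and D9 overlapped, D9 and D13 were apart, and D13 and D15 overlapped. The spread between the pools of D5 was 9.42 CPM (SD, n = 2) around a mean of 25.9 CPM.

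MET had its highest mean at D3 and its lowest levels from D11. It was at 9.36 and 10.1 CPM at D0 and at 15.8 and 25.1 CPM at D3. Levels of 12.5 and 15.1 CPM at D5 and of 14.0 and 13.8 CPM at D7 followed. From there MET stood at 8.62 and 6.74 CPM at D9, 2.92 and 3.61 CPM at D11, 3.14 and 3.31 CPM at D13 and 3.92 and 3.22 CPM at D15. The pools of D3, D5 and D7 all lay above those of D0, those of D0 above those of D9, and those of D9 above those of D11, D13 and D15, which overlapped with one another. The pools of D3 were above those of D7, and D7 and D5 overlapped.

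ST14 was barely counted in fibroblasts. Only 2 UMIs were counted in each D0 pool, 2 and 1 at D3, and 11 and 2 at D5, among 35282799 or more UMIs per pool. At D7 there were 41 and 33 UMIs (0.287 and 0.241 CPM). The level was 1.09 and 1.22 CPM at D9, 2.22 and 3.32 CPM at D11, 4.15 and 2.76 CPM at D13 and 3.56 and 3.80 CPM at D15. From D5 to D11 both pools of a day were above both pools of the day before, while D0 and D3 overlapped. D13 overlapped with both D11 and D15, and both pools of D15 were above both pools of D11.

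SPINT1 and SPINT2, the genes of the 2 inhibitors, were high from D9 on. SPINT1 was at 0.960 and 1.06 CPM at D0, 2.80 and 1.28 CPM at D3, 8.98 and 5.75 CPM at D5 and 14.7 and 11.4 CPM at D7. It then stood at 45.9 and 45.2 CPM at D9, 55.0 and 61.5 CPM at D11, 98.8 and 39.8 CPM at D13 and 39.6 and 49.7 CPM at D15. D0, D3, D5 and D7 were each apart from their neighbours in the order, and of the later days only D11 and D9 were apart as neighbours.

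SPINT2 differed at the start, since fibroblasts carried it at 8.19 and 8.50 CPM and the D3 pools at only 3.65 and 1.70 CPM. It was at 17.6 and 14.1 CPM at D5 and 39.0 and 31.9 CPM at D7. It stood at 183 and 179 CPM at D9, 194 and 265 CPM at D11, 343 and 187 CPM at D13 and 203 and 189 CPM at D15. For both inhibitors, pool A of D13 was the highest of all pools, and in CPM the 2 pools of D13 differed more than those of any other day. In the order of the day means, D0, D5, D7, D9 and D15 were each apart from the next lower day, whereas D15 overlapped with D11 and D11 with D13.

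**Figure D1:**
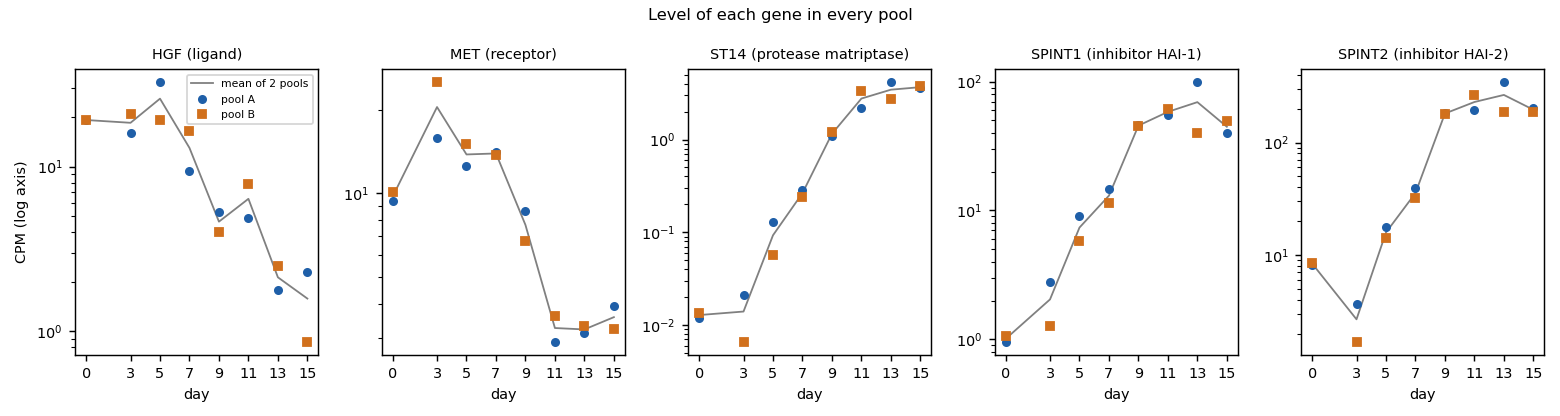
Level of HGF, MET, ST14, SPINT1 and SPINT2 in CPM (log axis, a separate scale per gene) against the day of harvest, with circles for pool A, squares for pool B and a line through the mean of the 2 pools. HGF and MET are high until D7 and low from D9 or D11, and the protease and its inhibitors take the opposite course.

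Between the early transfected days (D3, D5 and D7, 6 pools) and the late days (D9 to D15, 8 pools), HGF fell from 19.1 ± 7.67 to 3.67 ± 2.28 CPM (SD), a log2 fold change of -2.59 ± 0.23 (SE, adjusted p = 7.62e-07 by the quasi-likelihood test of edgeR). MET fell from 16.1 ± 4.58 to 4.44 ± 2.09 CPM, a log2 fold change of -1.98 ± 0.14 (adjusted p = 8.36e-08, edgeR). SPINT1 rose from 7.48 ± 5.15 to 54.4 ± 19.4 CPM, by 3.17 ± 0.22 (adjusted p = 6.48e-08, edgeR), and SPINT2 from 18.0 ± 15.0 to 218 ± 57.6 CPM, by 4.20 ± 0.18 (adjusted p = 9.26e-10, edgeR). All 4 tested genes were called, at an adjusted p under 0.01 and a log2 fold change beyond 0.25, against 43.5% of the 12794 genes tested. ST14 was detected in 4.91% of cells and missed the 5% needed for the test. With no filter on genes it rose by 4.99 ± 0.25 (adjusted p = 7.92e-17, edgeR), where 35.5% of 29281 genes were called. The pools of the 2 periods did not overlap for any of the 5 genes. How common this is among all genes was not counted, so nothing particular to these genes is read from it.

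Between adjacent days, the calls among the tested genes were few. From D0 to D3, MET rose by 1.05 ± 0.26 and SPINT2 fell by 1.70 ± 0.30 on the log2 scale (adjusted p = 0.0064 and 0.000794, edgeR), 2 of 4 genes where 25.6% of all genes were called. The value of MET was 0.61 without D3 pool B (adjusted p = 0.0673) and 1.39 without D3 pool A (adjusted p = 0.00124), and the call was also lost without either D0 pool (adjusted p = 0.0468 and 0.0416, all edgeR). From D3 to D5, SPINT2 rose by 2.54 ± 0.31 (adjusted p = 0.000259, edgeR, 3.56% called), and the 1.82 ± 0.38 of SPINT1 missed the threshold (adjusted p = 0.0105) but was called by DESeq2. From D5 to D7 none of the 4 was called by edgeR (2.06% called), 3 were at an unadjusted p under 0.05 and DESeq2 called 1, SPINT2. From D7 to D9, SPINT1 rose by 1.77 ± 0.37 (adjusted p = 0.00627) and SPINT2 by 2.31 ± 0.30 (adjusted p = 0.000272, both edgeR), where 7.37% of genes were called. The call of SPINT1 was lost in 10 of 22 alternatives, with an adjusted p of up to 0.0912.

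HGF at -1.52 ± 0.42 (adjusted p = 0.0296) was not called from D7 to D9 by edgeR and was called by DESeq2. The fall of HGF passed the edgeR test over the periods but in no single interval, except with no filter on genes, where it was called from D7 to D9 (-1.50 ± 0.34, adjusted p = 0.00287) and from D11 to D13 (-1.54 ± 0.34, adjusted p = 0.00956). From D9 to D11, MET fell by 1.26 ± 0.26 on the log2 scale (adjusted p = 0.00957, edgeR, 4.09% called), a call that was lost in 13 of 22 alternatives, with an adjusted p of up to 0.115. With no filter on genes, ST14 rose by 2.10 ± 0.34 from D7 to D9 (adjusted p = 5.81e-05, edgeR, 6.5% called). From D9 to D11 it was at 1.18 ± 0.31 and not called (adjusted p = 0.0136, edgeR, 5.02% called).

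From D11 to D13 (0.117% called) and from D13 to D15 (0.086% called) neither edgeR nor DESeq2 called any of the 4 genes among those that passed the filter (HGF from D11 to D13 is the exception given for no filter), and 1 and 0 of them were at an unadjusted p under 0.05. From the control cells of D0 to D15 all 4 were called, where 53.4% of genes were. Before thinning, HGF was in only 3.15% and 1.85% of D15 cells, and SPINT1 in only 2.36% and 3.11% of D0 cells. Both passed the 5% filter through days where they are higher, so their filtered calls here are no independent evidence. They were also called with no filter on genes, where 38.4% of genes were. HGF fell by 3.72 ± 0.47 and MET by 1.52 ± 0.27 on the log2 scale, while SPINT1 rose by 5.40 ± 0.43 and SPINT2 by 4.49 ± 0.33 (adjusted p = 1.90e-05, 0.000287, 3.11e-07 and 1.36e-07, edgeR). With no filter on genes, ST14 rose by 7.78 ± 0.49 from its 2 UMIs per D0 pool (adjusted p = 5.69e-14, edgeR, 38.4% called), a fitted value that depends on how so few UMIs are handled.

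Other genes of HGF activation changed in both directions. Of 12 genes for proteases that can cut HGF or act upstream of such proteases, with a receptor and an inhibitor, 4 were found in at least 5% of cells in both the early and the late days, of which 1 rose and 1 fell between these periods, where 43.5% of all genes were called. F12 (coagulation factor XII) rose by 1.53 ± 0.12. PLAU, encoding urokinase, fell by 1.40 ± 0.34 on the log2 scale. Its receptor PLAUR (-0.16 ± 0.21) and PLAT, the tissue plasminogen activator (-0.67 ± 0.21), did not pass, although PLAT was called with no filter on genes (-0.78 ± 0.18, adjusted p = 0.00063, edgeR). PRSS8 and KLKB1 reached the 5% through the late days alone (4.91% and 0.386% of early cells), and their values are those of the fit with no filter, which called 35.5% of genes. PRSS8, which encodes prostasin, a membrane-anchored protease that works together with matriptase, rose by 4.98 ± 0.20 (adjusted p = 4.33e-19, edgeR) and was at 0.0462 ± 0.0365 CPM at D0, 14.3 ± 1.58 CPM at D9 and 42.0 ± 1.99 CPM at D15. KLKB1 (plasma kallikrein) rose by 7.01 ± 0.29 (adjusted p = 9.55e-19, edgeR). It was at no more than 0.266 CPM in any early pool, so that the size of this fold depends on how so few UMIs are handled. HPN, encoding hepsin, another membrane-bound activator, missed the 5% filter (4.97% of cells). With no filter on genes it rose by 8.52 ± 0.38 (adjusted p = 3.10e-17, edgeR). It was at no more than 0.07 CPM in any early pool, so the size of this fold too depends on how so few UMIs are handled. HPN stood at 0 CPM in both D0 pools, 1.20 ± 0.364 CPM at D9 and 4.47 ± 0.226 CPM at D15. HGFAC and PLG, for the circulating activator and plasminogen, were at most at 0.08 CPM in any pool. Within the late days, F12 (2.46 ± 0.26) was higher in cells of the developmental than of the somatic marker range described further on. PLAU (-3.40 ± 0.14), PLAT (-3.28 ± 0.37) and PLAUR (-2.97 ± 0.13) were lower there. Each of these was called by edgeR, where 62.9% of all genes were. The difference of PRSS8 was 2.53 ± 0.26, given without a test since PRSS8 passed the filter through the late days.

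Of the 7 genes of the MET family and its co-receptors, 4 were found in at least 5% of cells in both periods and all 4 were called, where 43.5% of all genes were. CD44, whose variant forms act as a co-receptor of MET, fell by 2.61 ± 0.19 on the log2 scale between these periods. Its level was 577 ± 27.5 CPM at D0, before the early days compared, and 12.4 ± 1.88 CPM at D15. NRP1, encoding neuropilin-1, fell by 2.06 ± 0.12 and the proteoglycan gene SDC1 by 0.63 ± 0.16. PLXNB1, a semaphorin receptor that can associate with MET, rose by 1.43 ± 0.15. MST1, the HGF-like ligand of the related receptor MST1R, was in 4.51% of early cells and rose by 0.76 ± 0.17 with no filter on genes (adjusted p = 0.000306, edgeR), although its reads may be split with near-identical copies of the gene. Of the intracellular genes a share below that of all genes was called. Among 15 adaptors, kinases and STAT3, CRKL rose (0.61 ± 0.14) and PIK3R1 fell (-1.33 ± 0.24), and the median was -0.04. STAT3 was at 0.10 ± 0.12 and GAB1, the docking protein of MET, at 0.38 ± 0.15, neither of them called. Of 11 genes of MET shedding and attenuation, PTPRJ (1.06 ± 0.13), TIMP3 (0.72 ± 0.15) and PTPN2 (0.47 ± 0.09) rose, PTPN2 not being called with no filter (adjusted p = 0.0164, edgeR). DCN, encoding decorin, a matrix proteoglycan that binds MET, fell by 3.43 ± 0.24. The 4 of 11 called are near the share over all genes. The sheddase genes ADAM10 (-0.08 ± 0.12) and ADAM17 (-0.13 ± 0.09) did not pass.

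**Figure D2:**
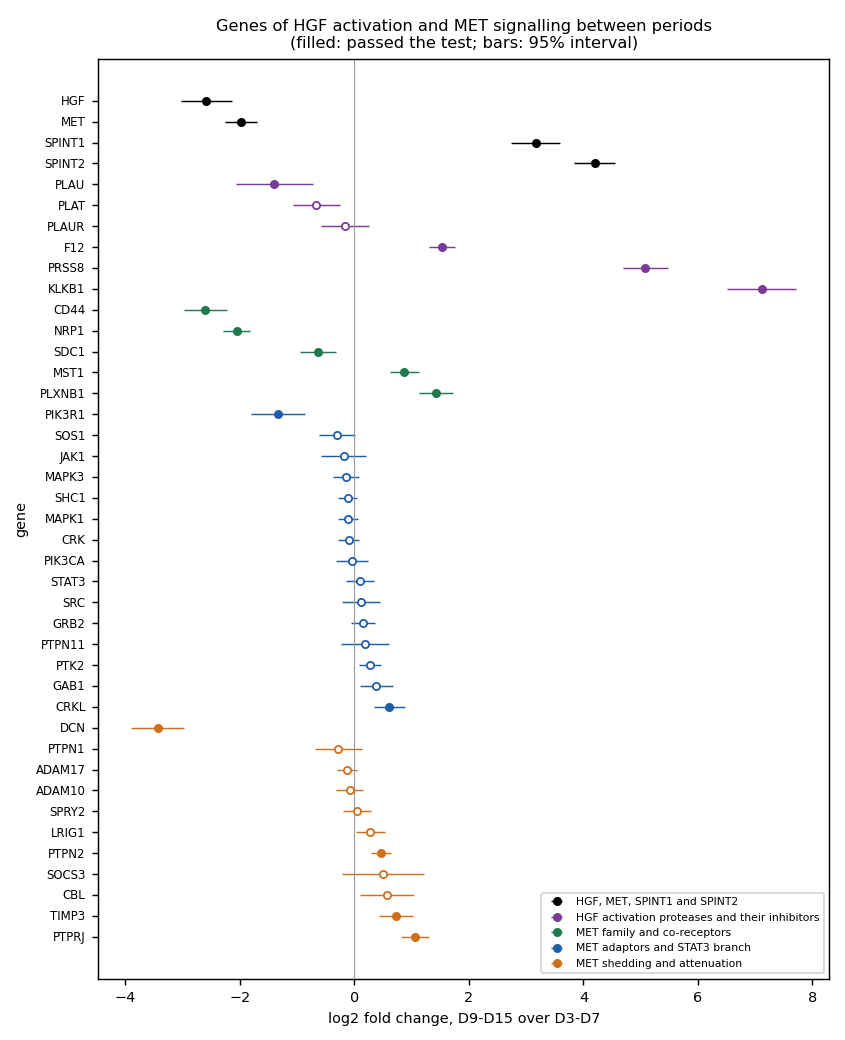
Log2 fold change of the late days (D9 to D15) over the early transfected days (D3 to D7) for the genes of HGF activation and MET signalling that were tested, with 95% intervals as bars and filled points for genes that passed the test. PRSS8, KLKB1 and MST1 passed the 5% filter through the late days alone, and their filled points are no independent evidence. Most adaptors lie near 0, while the ligand, the receptor, the co-receptors and the proteases and inhibitors lie on either side.

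At the level of cells, every cell was thinned to 10000 UMIs so that shares can be compared, which left out 279 cells. HGF was found in 16.5% and 16.1% of D0 cells, 23.6% and 17.8% of D5 cells, 5.05% and 3.87% of D9 cells and 1.75% and 1.03% of D15 cells. MET was found in 9.17% and 9.49% of D0 cells, 13.03% and 19.8% of D3 cells, 12.1% and 11.1% of D7 cells and 3.85% and 2.40% of D15 cells. SPINT2 was carried by most cells late, in 6.76% and 7.46% of D0 cells, 58.7% and 62.4% of D9 cells and 82.1% and 80.0% of D15 cells. SPINT1 reached 30.5% and 37.8% and ST14 only 3.85% and 3.77% of D15 cells. In D0 fibroblasts ST14 was seen in 1 of 6050 cells and in 0 of 4584 cells, which allows a share of up to 0.0654%. SPINT1, an epithelial gene, was still seen in 0.975% and 0.894% of D0 cells, and free RNA was not tested as a source of these UMIs. The median depth before thinning was 23717 and 28376.5 UMIs per cell at D0 and 57141 and 29973 at D15. All shares cover counting error only, and a cell without a UMI may still express the gene.

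Among cells with HGF, the share with 2 or more UMIs at this depth varied between pools without following the days. It was 19.8% and 17.1% at D0, 36.2% and 23.6% at D5, 36.4% and 31.3% at D9 and 50% and 14.3% at D15, where only 10 and 21 cells had HGF. The lowest of the 16 pools was D13 pool A at 10.7%. For MET the same share was 5.95% and 6.90% at D0, 14.3% and 13.5% at D3, 13.1% and 12% at D9 and 4.55% and 4.08% at D15.

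From D5 to D9, HGF was rarer and MET more frequent in cells with many developmental markers than in cells with none. By the marker ranges described further on, MET at D9 went the other way. It was at 6.91 and 8.51 CPM in the somatic range and 4.59 and 5.06 CPM in the developmental range. At D7, HGF was found in 23.5% and 24.9% of the cells without any of the 12 developmental markers, 12.3% and 14.2% of those with 1, 7.90% and 6.33% of those with 2 or 3 and 3.00% and 2.96% of those with 4 or more. In the same bins of cells MET was found in 6.17% and 8.41%, 11.04% and 12.8%, 14.0% and 13.01%, and 12% and 11.8%. SPINT1 went from 6.17% and 3.38% to 21.7% and 24.1% between the first and the last of these groups of cells.

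Over the 6 pools of D5, D7 and D9, cells with 4 or more developmental markers had a lower HGF share than cells with none in 6 of 6 pools (1.84% ± 1.51 against 25.4% ± 5.54, SD over pools). MET was higher in 6 of 6 pools (11.2% ± 4.58 against 6.82% ± 1.68), as were SPINT1 (27.4% ± 13.4 against 4.56% ± 1.68) and SPINT2 (55.9% ± 21.3 against 9.90% ± 4.60). For these 4 genes the two-sided exact permutation test over pools gave p = 0.03125, the smallest it can give here, and 0.0391 after adjustment over the 5 genes. ST14 was higher in 4 of 6 pools (exact permutation test, p = 0.125). The groups and the test were chosen with the data known, D5 pool B had only 15 cells with 4 or more markers, and cells with more markers were deeper before thinning (medians of 41088 UMIs with none and 77313 with 4 or more in D7 pool B), whose part in the difference was not tested. With 6 pools, a gene can pass 0.05 after adjustment only if at least 4 of the 5 genes reach the smallest p, which was not the case at 5000 UMIs per cell, so nothing is read from the p-values there. At that depth a pool could hold as few as 4 cells with 4 or more markers, and HGF was lower in 5 of 6 pools, SPINT1 higher in 6, SPINT2 in 5 and MET in only 2 of 6. With 2 or more markers HGF was lower in 6 of 6 pools (by 11.6 percentage points on average), SPINT1 and SPINT2 higher in 6 of 6 (10.2 and 24.0 points) and MET in 5 of 6 (3.19 points).

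**Figure D3:**
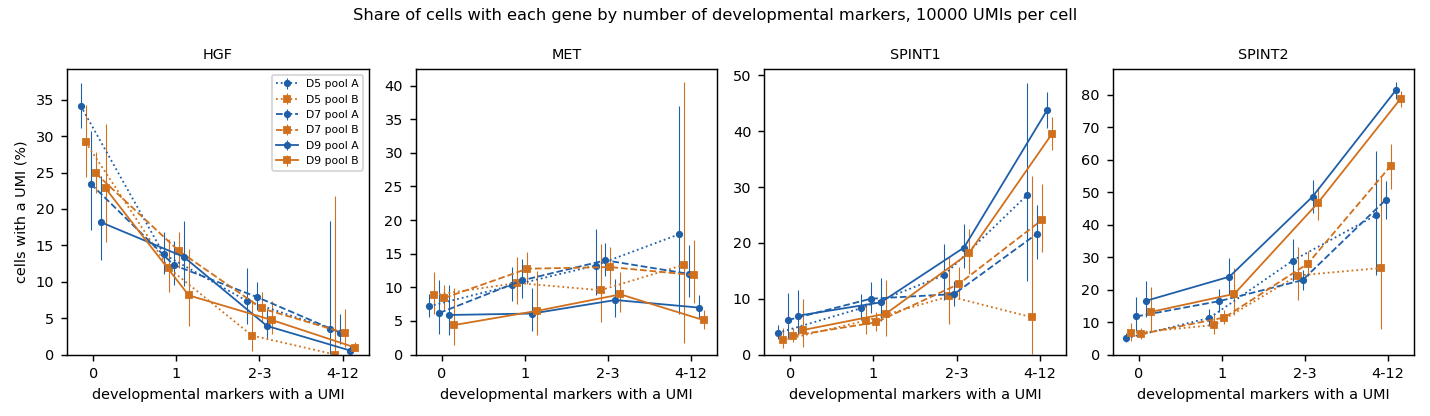
Percent of cells with a UMI of HGF, MET, SPINT1 and SPINT2 against the number of developmental markers found in the cell, all cells thinned to 10000 UMIs, with 1 line per pool of D5 (dotted), D7 (dashed) and D9 (solid) and 95% exact binomial intervals. HGF falls with each step in every pool, MET is lowest in cells without a marker, and both inhibitors are highest in cells with 4 or more, except SPINT1 in D5 pool B.

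From D9 on, a somatic range of cells (at least 3 more somatic than developmental markers) and a developmental range (at least 3 more developmental ones) could be compared within each of 8 pools, with 5899 and 6672 cells. These are ranges of a score and not cell types, and between 26.1% and 51.6% of the cells of a pool lay within 1 marker of a limit. HGF was high in the somatic range and near 0 in the developmental range. It was at 15.3 ± 7.99 CPM there (SD, n = 8, from 7.05 to 27.5) and at 0.398 ± 0.351 CPM in the developmental range (from 0 to 0.980), higher in the somatic range in 8 of 8 pools. The difference was -5.01 ± 0.36 on the log2 scale, given without a test. HGF was in a mean of 0.374% of developmental-range cells and passed the filter through the days and cells where it is high. In D13 pool A no HGF UMI was found in 765 cells of the developmental range, which allows up to 0.392 CPM. Within the somatic range HGF was at 14.2 and 23.4 CPM at D7 and 18.1 and 14.2 CPM at D9. There it was at 11.25 and 27.5 CPM at D11, 7.05 and 10.3 CPM at D13 and 26.3 and 7.66 CPM at D15. The share of cells in this range was 90.3% and 95.1% at D7, 47.4% and 39.1% at D9 and 9.98% and 10.9% at D15. The part of these shares in the fall of HGF over pools was not tested.

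UMIs of MET were found in both ranges, at 5.64 ± 2.24 CPM in the somatic range (from 2.78 to 8.77) and 3.88 ± 0.869 CPM in the developmental range (from 2.23 to 5.06). Between 2.23% and 4.81% of developmental cells had such a UMI, against 0% to 0.980% for HGF in the same cells, and free RNA was not tested as a source of either. MET was higher in the somatic range in 6 of 8 pools, all except D11 pool A and D13 pool A, and the difference of -0.41 ± 0.20 did not pass (adjusted p = 0.0792, edgeR). The inhibitors and ST14 were higher in the developmental range in 8 of 8 pools. SPINT1 was at 74.1 ± 27.0 against 16.5 ± 4.30 CPM (2.16 ± 0.18, adjusted p = 4.47e-07), and SPINT2 at 292 ± 79.5 against 74.4 ± 13.8 CPM (2.01 ± 0.15, adjusted p = 2.06e-07, both edgeR). ST14 was at 4.10 ± 1.43 against 0.483 ± 0.501 CPM, a difference of 2.74 ± 0.39 given without a test here and in the comparisons of cells that follow, since ST14 entered these fits by a filter that weighted days equally and that it passed through the days and cells where it is high. Of MET, SPINT1 and SPINT2, both inhibitors were called and MET was not, where 62.9% of 12920 genes were called. The developmental range was deeper before thinning, with pool medians of 31322 to 75740 UMIs against 21710 to 53734, and the part of this in the differences was not tested.

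The interaction test of edgeR, which asks whether the difference between the ranges itself differed between D9 and D11 to D15, called none of HGF, MET, SPINT1 and SPINT2, and 0.147% of all genes. At an unadjusted p under 0.05, 1 of these 4 would have been counted, SPINT2 (-0.67 ± 0.26, adjusted p = 0.181). In the same comparison, 8 of 15 MET adaptors and kinases were higher in the somatic and 1 in the developmental range (median -0.31 against 0.01 over all genes). These 9 of 15 are near the 62.9% called over all genes. Of the 7 genes of the MET family and co-receptors, 5 were tested. Of these 5, 3 were higher in the somatic range and 1 in the developmental range, where 62.9% of all genes were called. Of 9 keratin and epithelial junction genes, 5 were higher in the developmental range and none in the somatic range, again a share near that of all genes. Among these, RAB25 and CRB3 were at no more than 0.746 and 0.399 CPM in any pool up to D7. They entered the fit mainly through the later days, so their calls are no independent evidence.

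**Figure D4:**
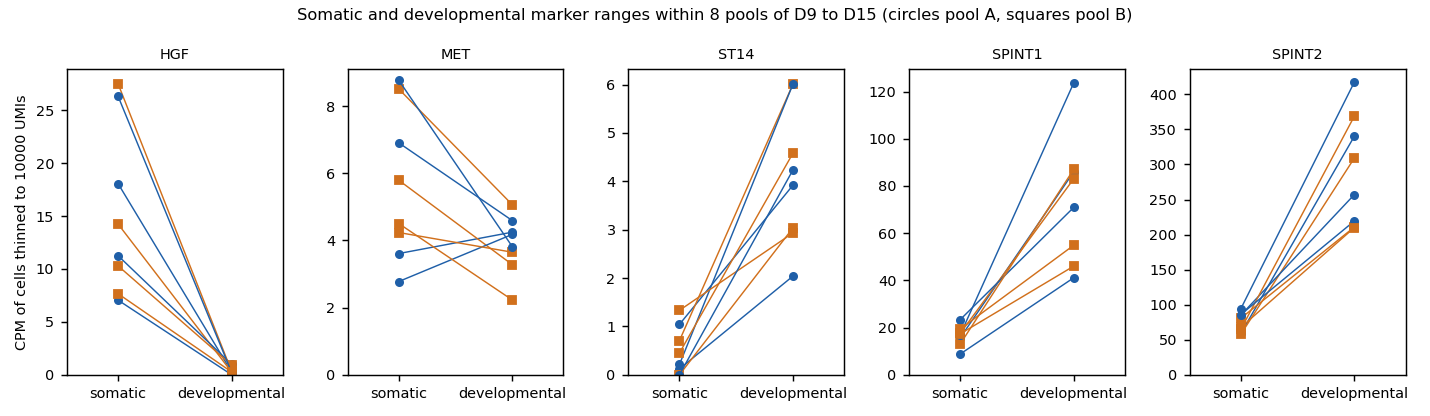
CPM of HGF, MET, ST14, SPINT1 and SPINT2 in cells of the somatic and the developmental marker range, with 1 line per pool (8 pools of D9 to D15) and cells thinned to 10000 UMIs. All lines of HGF go down and all lines of ST14, SPINT1 and SPINT2 go up, while those of MET cross.

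Cells with a UMI of 1 of the genes were then set against cells without one in the same pools, all at 10000 UMIs. A cell without a UMI may still express the gene, so these are differences between enriched groups of cells, and pools with at least 50 cells of each kind were used. Cells with HGF (4659 cells in 13 pools) differed in 20.1% of genes. They had higher levels of the secreted inflammatory factors CXCL8 (2.68 ± 0.29 on the log2 scale) and CXCL1 (2.06 ± 0.26), of the collagenase gene MMP1 (2.29 ± 0.34) and the stromelysin gene MMP3 (1.99 ± 0.39), of AREG, an EGF receptor ligand (1.98 ± 0.34), and of CASP1 (1.91 ± 0.34). LEFTY1 (-2.22 ± 0.24), LEFTY2 (-2.06 ± 0.36), TDGF1 (-2.07 ± 0.19) and FOXD3-AS1 (-2.08 ± 0.25) were lower, the first 3 being genes of the Nodal pathway. Of the lists, 8 of 10 inflammatory factors and 10 of 12 somatic markers were higher and none lower (medians 1.86 and 0.80, against -0.04 over all genes). Of 12 developmental markers 11, and of 9 cell cycle genes 7, were lower. SPINT1 (-1.32 ± 0.22) and SPINT2 (-1.32 ± 0.24) were lower in these cells, and MET (-0.18 ± 0.13, adjusted p = 0.299, edgeR) was not called. The median depth before thinning was 29137 UMIs with and 39079.5 UMIs without HGF, and its part was not tested.

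Limited to the 6 pools of D3 to D7, cells with HGF differed in 19.5% of genes. CXCL8 (2.27 ± 0.18), MMP1 (1.90 ± 0.14), CST1 (1.73 ± 0.12), CXCL1 (1.71 ± 0.11), TNFRSF11B, the gene of osteoprotegerin (1.66 ± 0.12), and CASP1 (1.56 ± 0.12) were higher. SPP1, encoding osteopontin (-2.07 ± 0.16), CD24 (-2.04 ± 0.11), RP11-148B6.1 (-1.54 ± 0.11) and the metallothionein gene MT1G (-1.52 ± 0.17) were lower. Of the inflammatory factors 9 of 10 were higher.

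Cells with MET differed from those without it in 2.45% of genes over 13 pools (3495 cells). CENPV (0.44 ± 0.09), UBE2S (0.42 ± 0.08), BCYRN1 (0.42 ± 0.09), ODC1 (0.42 ± 0.07), PYGL (0.40 ± 0.09) and the proliferation marker MKI67 (0.38 ± 0.08) were higher. LEFTY2 (-0.86 ± 0.14), LEFTY1 (-0.75 ± 0.15), MFAP4 (-0.72 ± 0.12) and APCDD1 (-0.69 ± 0.11) were lower. In the pools of D3 to D7 alone, 10.6% of genes were called. There UBE2S (0.63 ± 0.06), TSPAN13 (0.57 ± 0.08), BCYRN1 (0.56 ± 0.08), PYGL (0.56 ± 0.07), the mitotic kinase gene PLK1 (0.55 ± 0.08) and ORC6 (0.53 ± 0.07) were higher. The matrix genes MGP (-1.88 ± 0.13), LOXL4 (-1.20 ± 0.14), MFAP4 (-1.19 ± 0.09) and LUM (-0.96 ± 0.06) were lower.

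In these early pools, the counts of somatic, inflammatory and cell cycle genes had opposite directions in cells with MET and in cells with HGF. In cells with HGF, 10 of 12 somatic markers were higher and 8 of 9 cell cycle genes lower, beside the 9 inflammatory factors named. Of the inflammatory factors 7 of 10 were lower in cells with MET (median -0.74), as were 10 of 12 somatic markers (median -0.60), whereas 5 of 9 cell cycle genes were higher (median 0.36, against -0.01 over all genes). HGF itself was lower in cells with MET (-0.49 ± 0.10, adjusted p = 0.00028, edgeR) and MET in cells with HGF (-0.43 ± 0.11, adjusted p = 0.0032, edgeR). Keratin and junction genes did not follow this, with 2 of 9 lower in cells with HGF and 1 lower in cells with MET. Nor did interferon genes, with 3 of 5 lower in cells with MET and 0 called in cells with HGF. Of 12 developmental markers, 8 were lower in cells with HGF and only 1 was higher in cells with MET. Over all genes, 19.5% were called for HGF and 10.6% for MET. The difference between the 2 comparisons was not tested.

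**Figure D5:**
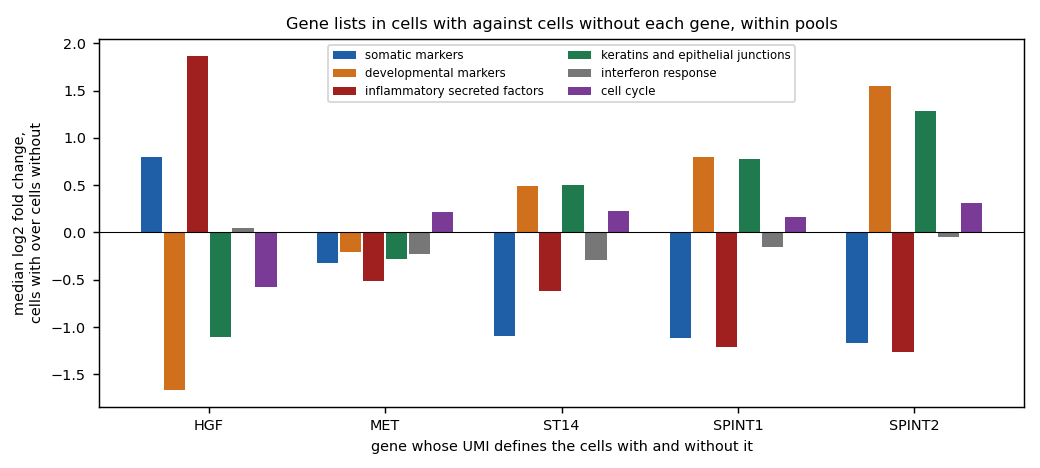
Median log2 fold change over the tested genes of 6 lists (bars, coloured by list) in cells with a UMI of HGF, MET, ST14, SPINT1 or SPINT2 against cells without one, within pools of all days used. The bars of HGF and of the 2 inhibitors point in opposite directions for somatic, developmental, inflammatory and keratin genes, and those of MET are short, from -0.51 for inflammatory factors to 0.21 for cell cycle genes.

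Cells with ST14 (348 cells in 4 pools of D11 to D15) differed in 2.07% of genes. The pluripotency gene SOX2 (0.66 ± 0.11), the claudin gene CLDN7 (0.65 ± 0.12), CECR2 (0.63 ± 0.14), FOXD3-AS1 (0.61 ± 0.11), DPPA5 (0.60 ± 0.13) and RP11-568A7.4 (0.58 ± 0.12) were higher. DKK1, a Wnt antagonist (-2.28 ± 0.27), IGFBP5 (-1.88 ± 0.19), IGFBP3 (-1.72 ± 0.13) and ANKRD1 (-1.63 ± 0.15) were lower, as were 11 of 12 somatic markers. SPINT1 (0.44 ± 0.15, adjusted p = 0.0934) and SPINT2 (0.30 ± 0.10, adjusted p = 0.123, both edgeR) were not called.

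For the inhibitors, cells with SPINT1 (6778 cells in 14 pools, 19.8% of genes called) had more of the adhesion molecule gene EPCAM (0.98 ± 0.15), ACTA1 (0.95 ± 0.19), the claudin gene CLDN6 (0.92 ± 0.15), POU5F1 (0.92 ± 0.14), FOXD3-AS1 (0.91 ± 0.14) and MT1H (0.88 ± 0.16). POU5F1 and SOX2 were also among the transfected mRNAs, and the counts do not separate these from transcripts of the cells' own genes. ELN, encoding elastin (-2.13 ± 0.24), MMP1 (-1.77 ± 0.34), APOD (-1.46 ± 0.24) and CXCL1 (-1.44 ± 0.28) were lower. All 12 developmental markers and 8 of 9 keratin and junction genes were higher. SPINT2 was higher (0.86 ± 0.12) and HGF lower (-1.64 ± 0.25) in the same cells, and the difference of ST14 was 0.87 ± 0.20, with no test.

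Cells with SPINT2 (14699 cells in 16 pools, 21.9% called) had more ACTA1 (2.26 ± 0.24), NODAL (1.88 ± 0.25), EPCAM (1.84 ± 0.28), CLDN6 (1.81 ± 0.25), FOXD3-AS1 (1.81 ± 0.27) and LINC01356 (1.80 ± 0.24). ELN (-2.03 ± 0.35), RAMP1 (-1.92 ± 0.29), MMP1 (-1.76 ± 0.40) and APOD (-1.65 ± 0.29) were lower. SPINT1 was higher (1.41 ± 0.20) and HGF lower (-1.62 ± 0.28). The difference of ST14 was 1.42 ± 0.35, and 0.81 ± 0.26 at 5000 UMIs per cell, again with no test. Cells with an inhibitor were deeper before thinning, with medians of 50846 against 35366 UMIs for SPINT1 and 47888 against 33136 for SPINT2, and the part of this was not tested.

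In the early pools of D3 to D7 the inhibitors were found in fewer cells, and 2.49% (SPINT1, 650 cells in 5 pools) and 1.96% (SPINT2, 1263 cells in 6 pools) of genes were called. TDGF1, encoding a Nodal co-receptor, was higher in both comparisons (1.37 ± 0.14 and 1.90 ± 0.15), as were MT1H (1.35 ± 0.15 and 1.86 ± 0.20), MT1G (1.33 ± 0.18 and 1.55 ± 0.22), SPP1 (1.29 ± 0.09 and 1.94 ± 0.19) and the keratin gene KRT8 (0.91 ± 0.11 and 1.43 ± 0.14). CD24 was higher with SPINT1 (0.92 ± 0.10) and PPP1R14A with SPINT2 (1.45 ± 0.14). More of the called genes were lower than higher in cells with SPINT1, 208 of 322, whereas 46 of 253 were lower in cells with SPINT2. Lower with SPINT1 were LOXL4 (-1.14 ± 0.13), MMP1 (-1.11 ± 0.11), ASS1 (-1.01 ± 0.10) and APOD (-0.94 ± 0.13), and 8 of 12 somatic markers and 6 of 10 inflammatory factors were lower too. Lower with SPINT2 were MGP (-1.31 ± 0.23), APOD (-1.14 ± 0.18), SOD3 (-0.92 ± 0.19) and MFAP4 (-0.89 ± 0.18), with 1 of 12 somatic markers and 0 of 10 inflammatory factors called. SPINT2 was higher in cells with SPINT1 (1.35 ± 0.14) and SPINT1 in cells with SPINT2 (1.50 ± 0.18).

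Counts of cells that held both of 2 transcripts, against the product of the 2 shares in each pool, are given as a description, over the pools where the product came to at least 5 cells. HGF and MET were found together in 449 cells where 505 were computed over 10 such pools, fewer in 8 of them and more in D0 pool A and D11 pool B. The other 6 pools, all of D9 to D15, were above the product with 1 to 8 cells each, so that 8 of all 16 pools were below it and 8 above. HGF and SPINT1 met in 154 cells against 362, fewer in 14 of 15 pools, and HGF and SPINT2 in 423 against 798, fewer in 15 of 16. SPINT1 and SPINT2 met in 5380 cells against 4489, more in 11 of 11 pools. MET and SPINT1 were near the product, with 335 cells against 322.

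Over the 16 pools, which share the sequence of days, the Pearson correlation of log2(CPM + 1) was 0.83 between HGF and MET and 0.97 between SPINT1 and SPINT2. Among 9249 genes that reached 10 CPM in a pool, the course of HGF was most like those of GRK5 (r = 0.99), CCDC102B, CASP1, OAF and NRP1 (each r = 0.96). That of MET was most like IFIH1 and PHF20L1 (r = 0.97), STAMBPL1 and PDE1A (r = 0.96) and C17orf89 (r = 0.95). ST14 was nearest to CYYR1, CRMP1, NPPB, CRB3 and KCNK12, SPINT1 to RASL11B, GPX3, COL9A3, TDRP and APOE, and SPINT2 to SNN, PDE6G, OCLN, RBPMS and LINC00545, all with r of 0.98 or more.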

How the data were processed

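The deposited files hold UMI counts per gene and cell barcode, which the authors made with Cell Ranger 2.2 on hg38; they are raw counts, and aliquots of a pool are separate files. Aliquots were added, which gave 16 pools (2 per day) from 22 libraries, with 33181614 to 180056814 UMIs per pool. No doublet caller was run; an alternative left out the 5% of cells with the most UMIs per library. Each pool mixed cells from several chips of 1 cell line. Between days, p-values rest on the spread between the 2 pools of a day. Within pools, they rest on how far a difference varied from pool to pool.

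Pool sums of genes found in at least 5% of cells were fitted together in R 4.3.3, by the quasi-likelihood test of edgeR 4.0.16 after TMM scaling, with p-values adjusted after Benjamini-Hochberg. A call needed an adjusted p under 0.01 and a log2 fold change beyond 0.25. Between days, ST14 and HPN, which missed the 5%, were tested in the same fit with no filter on genes. So were PRSS8, KLKB1 and MST1, which reached the 5% through the late days alone. DESeq2 1.42.0 was the alternative. Comparisons of cells within pools summed thinned cells per pool and kept the pool as a block, over genes that reached 5% with days weighted equally. On simulated counts the comparison of D3 with D5 called 2, 44, 49 and 50 of 50 genes changed 2-, 4-, 8- and 16-fold, with 2 false calls among 12794 genes, so 2-fold changes were mostly missed. That of the marker ranges called 81 and 99 of 100 genes at 2- and 4-fold.

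The genes, lists and comparisons were chosen with earlier results of these data known. In the HGF activation list, 1 gene is not reported here and was left out of its counts. Named are the 5 genes, genes of the HGF and MET lists, the 5 genes most correlated with each, and, for cells with against without a UMI, the 6 largest rises and 4 largest falls among called genes at 50 CPM or more. Shares carry counting error only. Exact tests used scipy 1.17.1, and tables were handled with pandas 2.3.3 under Python 3.11.15.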

Additional observations from a re-analysis of the deposited data

How the results depend on the processing

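For HGF, MET, SPINT1 and SPINT2, 18 log2 differences were followed, those called between days and those between marker ranges. None reversed and 15 kept direction and call under every alternative. For HGF between ranges, given without a test, only the direction is read. Steps between days that were not called are not among the 18. Some of those steps were called in an alternative, such as HGF from D7 to D9 with DESeq2. The untested difference of ST14 between ranges was 2.55 to 4.79. The exceptions among the 18 were the steps of MET from D0 to D3 (lost in 3 of 22 alternatives) and from D9 to D11 (13 of 22) and of SPINT1 from D7 to D9 (10 of 22). Some differences that were not called, or for ST14 not tested, changed sign, such as ST14 in cells with HGF (-0.68, 0.16 with DESeq2 and 1.10 in D3 to D7), ST14 in cells with MET (-0.20 and 0.20 with DESeq2) and MET in cells with SPINT1 (0.09 and -0.10 at 5000 UMIs). Leaving out 1 pool at a time, the number of the 4 tested genes called ranged from 1 to 2 for D0 to D3, 1 to 2 for D3 to D5, 0 to 1 for D5 to D7, 1 to 2 for D7 to D9 and 0 to 1 for D9 to D11. Pools left out of other days also changed these counts, since all days share 1 estimate of the spread. From D3 to D5, 2 were called with DESeq2, with no filter on genes and with the pool letter as a replicate block, and the block changed no other count. Whether the letters pair the pools across days is not known. The correlation of A minus B between days ranged from -0.447 to 0.817 (median -7.57e-05, 28 pairs of days). From D5 to D7, 1 was called with DESeq2 and with no filter. With no filter, where ST14 is also tested, 4 of 5 were called from D7 to D9 (all except MET) and 1 from D11 to D13 (HGF). From D9 to D11, 0 were called without the 5% of cells with the most UMIs and 2 with days weighted equally, where ST14 is the added gene and its call is not used.

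Genes called between cells with and without a UMI numbered 2599 for HGF and 1192 at 5000 UMIs, 317 for MET and 1374 in D3 to D7, 268 for ST14 and 125 with DESeq2, 2558 for SPINT1, 1588 at 5000 UMIs and 322 in D3 to D7, and 2833 for SPINT2 and 253 in D3 to D7. ST14 could not be fitted at 5000 UMIs or in D3 to D7. By marker count at 5000 UMIs, the differences (4 or more markers minus none) were -9.49, 1.65, 17.4 and 30.0 percentage points for HGF, MET, SPINT1 and SPINT2, and with 2 or more markers -11.6, 3.19, 10.2 and 24.0, none of them past 0.05 after adjustment, which only a minimum p in at least 4 of the 5 genes would allow. At 5000 UMIs with 4 or more markers, MET was lower in 4 of 6 pools although its mean was higher. The cause of these changes was not tested.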

Other observations

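Aliquots of the same pool differed in HGF and in other genes. In D5 pool A, HGF was at 31.2 and 37.5 CPM in the 2 aliquots, MET at 11.1 and 17.7 CPM, SPINT1 at 10.1 and 4.90 CPM and SPINT2 at 19.0 and 12.2 CPM. In D5 pool B, HGF was at 29.3 and 15.7 CPM in the 2 aliquots, MET at 20.5 and 13.2 CPM, SPINT1 at 8.28 and 4.86 CPM and SPINT2 at 16.6 and 13.2 CPM. In D7 pool B, HGF was at 20.3 and 15.5 CPM and MET at 19.3 and 12.2 CPM. In D11 pool B, HGF was at 13.7 and 6.90 CPM, MET at 3.95 and 3.56 CPM and SPINT1 at 52.3 and 63.0 CPM.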
